A study of Mus musculus with 5 samples.

Results

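Cycling macrophages were macrophages caught with RNA of the division genes Mki67 and Top2a. They made up 5171 of 57661 cells kept from 5 single-cell RNA sequencing libraries, and 12.9% of the 40005 macrophages among them. Barcodes were kept if they had 500 or more unique molecular identifiers (UMIs, each standing for 1 captured RNA molecule) from 250 or more genes, with no more than 10% of UMIs from mitochondrial genes. A macrophage had at least 1 UMI of Csf1r, at least 2 UMIs of C1qa, C1qb and C1qc together and none of Cd3d, Cd3e or Cd3g. A cycling macrophage also had at least 1 UMI of Mki67 and at least 1 of Top2a. The members were thus chosen by the measured UMIs of those genes, so their levels are described and support nothing.

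The source was flank tumours seeded with the mouse lung cancer line LLC (Lewis lung carcinoma). At endpoint the dissociated tumours were sorted for cells with CD45, the surface protein of blood-derived cells, that took up no propidium iodide, a dye of dead cells. In the 2 JAG2KO libraries the injected cancer cells had received a guide RNA against Jag2, a ligand of Notch receptors, and in the 3 Scramble libraries a scrambled guide. Both groups thus carried the same cancer line and differ by the guide. Strain, sex, genotype and age of the hosts, and whether the edited line was 1 clone or a pool, are not given in the sources used here. The labels number the libraries without saying that they came from separate animals, so p-values measure the spread between these libraries only.

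Macrophages in tumours can be renewed by monocytes that enter from the blood or by division in place. A dividing cell first makes the enzymes that copy DNA in S phase, then the cyclins, kinases and motor proteins that separate chromosomes in G2 and mitosis. In mouse macrophages division is driven by growth factors that act on the receptor Csf1r.

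The libraries held 84788907 to 111680641 UMIs. Library JAG2KO 2 stood apart, with 19338 kept cells against 10272 in JAG2KO 1 and 8221 to 10328 in the Scramble libraries. Its median was 2422 UMIs per kept cell, against 8965 in JAG2KO 1 and 8064.5 to 8187.5 in the Scramble libraries. Kept cells of any 2 libraries shared 17 to 54 barcodes, at most 0.535% of the smaller library. Jag2 had 394 and 191 UMIs in the kept cells of JAG2KO 1 and 2, against 355, 313 and 356 in Scramble 1, 2 and 3. The cells were sorted for CD45 and not for the edited cancer cells, so Jag2 checks no label here. Kept cells with UMIs of the tumour-like gene Rhox5, described below, were among them.

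The macrophage side of the name held in genes that the rule did not use. Adgre1, which encodes the macrophage surface protein F4/80, had 354 and 237 CPM (UMIs of a gene per 1000000 UMIs summed over a library's cycling macrophages) in JAG2KO libraries and 398, 309 and 338 in Scramble libraries. In other macrophages it had 403 and 283 CPM in JAG2KO and 369, 316 and 344 CPM in Scramble libraries. Each cycling value thus lay close to that of the other macrophages of its library. Cd68, a lysosomal protein of macrophages, had 436 to 617 CPM in cycling and 463 to 622 CPM in other macrophages. Lyz2, the lysozyme of myeloid cells, had 11632 to 16283 CPM in cycling macrophages, against 15179 to 20052 CPM in other macrophages. Of the other immune cells, Flt3 and Zbtb46 of dendritic cells had 0.543 to 2.37 and 0.706 to 1.90 CPM, and Cd79a of B cells 0.0962 to 0.414 CPM. Whole lists summed higher, to 31.0 to 43.3 CPM for dendritic cells, 1.99 to 60.5 CPM for mast cells or basophils and 93.2 to 272 CPM for neutrophils, with S100a8 at 16.1 to 101 CPM.

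The rule's threshold cut through a continuum. Just inside it, 822 of the cycling macrophages had exactly 1 UMI of each gene, while 3322 had at least 2 of each. Just outside it, 3846 macrophages had Mki67 without Top2a and 4813 had Top2a without Mki67. On the macrophage side, 24 cycling macrophages had the minimum of 2 C1q UMIs and 297 the minimum of 1 Csf1r UMI. Outside that edge, 29 cells with both division genes had 1 C1q UMI, and 277 were kept out by a Cd3 UMI alone.

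Cycling macrophages had more UMIs per cell than other macrophages in every library. Their median was 16940 UMIs in JAG2KO 1 and 9434 in JAG2KO 2, against 16162, 16632 and 17258 in Scramble 1, 2 and 3. Other macrophages had medians of 9645 and 4479 in JAG2KO and 9155.5, 8868 and 9194.5 in Scramble libraries. A UMI of a given gene is found more often in deeper cells, so the rule itself favoured cells with more UMIs. Values with matched or thinned UMIs therefore stand beside the others below. Cells among the 8% with the highest doublet scores of their library made up 14.9% and 7.5% of cycling macrophages in JAG2KO 1 and 2. In Scramble 1, 2 and 3 they made up 14.3%, 13.7% and 14.3%. Of other macrophages they made up 6.85% and 8.42% in JAG2KO and 8.14%, 8.01% and 8.45% in Scramble libraries. The share was thus higher in cycling macrophages of every library except JAG2KO 2.

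The first question was whether a larger or smaller share of macrophages was dividing in JAG2KO tumours. At the deposited depth, 1031 of 7544 macrophages of JAG2KO 1 were cycling (13.7%, exact Clopper-Pearson 95% interval 12.9 to 14.5) and 1173 of 10919 of JAG2KO 2 (10.7%, 10.2 to 11.3). Scramble libraries had 1085 of 7347 (14.8%, 14.0 to 15.6), 1153 of 8036 (14.3%, 13.6 to 15.1) and 729 of 6159 (11.8%, 11 to 12.7). JAG2KO 2, the shallow library, was lowest, and JAG2KO 1 lay among the Scramble libraries. These intervals cover counting error only.

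With every macrophage thinned to 2000 UMIs the order changed. The share was 5.42% (399 of 7356) in JAG2KO 1 and 6.11% (477 of 7809) in JAG2KO 2, after 188 and 3110 shallower macrophages were left out. It was 5.18% (368 of 7106), 5.71% (437 of 7654) and 4.29% (256 of 5964) in Scramble 1, 2 and 3, with 241, 382 and 195 left out. JAG2KO 2 was now highest, and the groups overlapped, since Scramble 2 exceeded JAG2KO 1. The mean was 5.77% ± 0.48 (SD, n = 2) in JAG2KO and 5.06% ± 0.72 (SD, n = 3) in Scramble libraries, with p = 0.4 in a two-sided exact permutation test, which cannot go below 0.1 here. Without thinning the difference of the means was -1.45 percentage points instead of 0.71, so its direction depended on thinning. Thinning also left out the shallower macrophages, most of them in JAG2KO 2, and the part of this loss was not tested. The groups did not overlap at no more than 5% mitochondrial UMIs, with a difference of 1.11, or among macrophages without UMIs of other lineages, with a difference of 1.46 (two-sided exact permutation p = 0.1 in both). The filter on other lineages was chosen after seeing the data and kept unequal parts of the libraries. It kept 3192 of 7356 and 4400 of 7809 thinned macrophages in JAG2KO 1 and 2. In Scramble 1, 2 and 3 it kept 2523 of 7106, 2782 of 7654 and 2749 of 5964. The part of this unequal loss in the difference was not tested.

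Neutrophils, which should not divide, were too few to set a close background. Among neutrophils, gated by S100a8, S100a9 and Csf3r without Csf1r, both division genes were found in 0 of 37 and 0 of 120 cells of JAG2KO 1 and 2, which allows shares of up to 8.11% and 2.50%. They were found in 0 of 109, 0 of 82 and 1 of 151 cells of Scramble 1, 2 and 3, where the counts of 0 allow up to 2.75% and 3.66%. The neutrophils' median depth was 1176 to 1835.5 UMIs, near the 2000 UMIs of the thinned macrophages, and the limit of 8.11% in JAG2KO 1 lies above its thinned share of 5.42%.

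**Figure D1:**
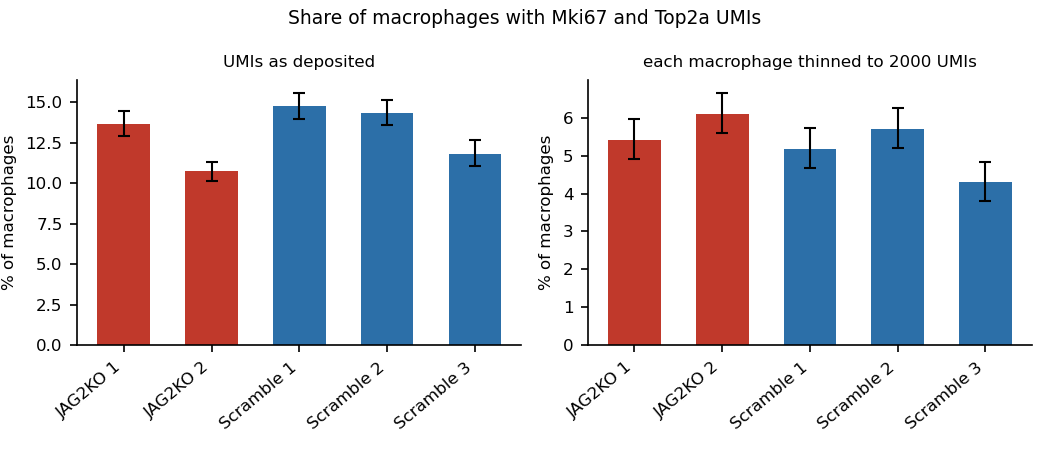
Percent of macrophages with at least 1 UMI of Mki67 and of Top2a in each library, at the deposited depth (left) and with every macrophage thinned to 2000 UMIs (right), with bars for single libraries and error bars for exact 95% intervals of counting error. JAG2KO 2 is the lowest bar on the left at 10.7% and the highest on the right at 6.11%.

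Cell cycle RNA summed over all macrophages needs no threshold per cell, and here the G2/M genes of the 2 groups separated by a small amount. The 43 S phase genes had 1441 and 1352 CPM in all macrophages of JAG2KO 1 and 2, against 1483, 1355 and 1247 CPM in Scramble 1, 2 and 3. These groups overlapped (means 1396 ± 62.4 and 1362 ± 118 CPM, SD, n = 2 and 3, two-sided exact permutation p = 0.9). The 52 G2/M genes, without Mki67 and Top2a, had 2312 and 2254 CPM in JAG2KO libraries and 2177, 2203 and 2103 CPM in Scramble libraries. Both JAG2KO values lay above all 3 Scramble values, a ratio of means of 1.06, with p = 0.1, the smallest that the exact permutation test of these 5 libraries can give. Among macrophages without UMIs of other lineages the G2/M difference was 222 CPM instead of 122, a ratio of 1.13, and the S phase groups did not overlap, with a difference of 150 CPM instead of 34.7 (two-sided exact permutation p = 0.2). This filter, chosen after seeing the data, kept unequal parts of the libraries, and the part of that loss was not tested.

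Within the cycling macrophages the balance between the phases overlapped between the groups. G2/M genes gave 66.6% and 68.4% of S plus G2/M UMIs in JAG2KO libraries, against 64.9%, 66.2% and 67.9% in Scramble libraries (two-sided exact permutation p = 0.4). Single cells spread widely. With cells thinned to 4000 UMIs and at least 10 cell cycle UMIs asked for, cells with under 33.3% of these UMIs from G2/M genes, the S phase end, made up 16.8% and 9.56% in JAG2KO and 19%, 16.1% and 16.7% in Scramble libraries. Cells with over 66.7% from G2/M genes made up 48.7% and 53.8% in JAG2KO and 45.0%, 48.8% and 53.2% in Scramble libraries. JAG2KO 2 had the fewest cells at the S phase end, and 233 of its 1173 cycling macrophages did not reach the 4000 UMIs.

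**Figure D2:**
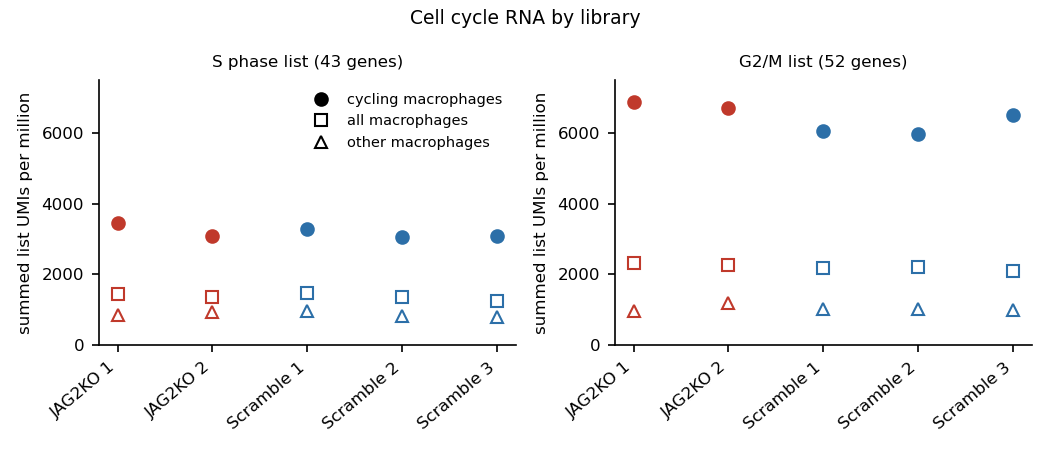
Summed UMIs of the S phase list (left) and the G2/M list (right) in CPM, by library, for cycling, all and other macrophages. In G2/M genes the cycling macrophages lie between 5975 and 6889 and the other macrophages between 975 and 1185, with the all-macrophage squares of both JAG2KO libraries just above the 3 Scramble squares.

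Set beside the other macrophages of their own library, cycling macrophages as a group had higher levels of genes from DNA copying to chromosome separation. This comparison describes how the cells differ and has no test, because the rule chose them by 2 division genes. Ratios are log2 of CPM plus 1, the median of 5 libraries, for the 8095 genes with a mean of at least 10 CPM. Of these genes, 390 (4.82%) had a median ratio over 1 and 60 (0.741%) a median under -1. With other macrophages matched to them on UMIs the counts were 353 and 18, so the number under -1 depended on which other macrophages were compared. UMIs per cell reflect both RNA content and sequencing depth, and their parts were not tested.

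All 49 measured G2/M genes were higher in all 5 libraries, with a median log2 ratio of 3.31, where 40.9% of all genes were higher in 5 of 5. Ube2c, the ubiquitin-conjugating enzyme of the anaphase-promoting complex, had 317 and 397 CPM in cycling macrophages of JAG2KO libraries and 286, 283 and 342 CPM in those of Scramble libraries. Other macrophages had 10.6 and 29.0 CPM in JAG2KO and 13.7, 14.4 and 12.3 CPM in Scramble libraries. No cycling value came near any value of other macrophages, and the median log2 ratio was 4.28. Nusap1, which binds spindle microtubules, had a ratio of 4.63, the mitotic kinesin Kif11 4.28 and Cdk1, the kinase that starts mitosis, 3.56. Outside the list, Prc1, which bundles the microtubules between separating chromosomes, had 4.48, and Knl1, a kinetochore protein, 4.40.

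S phase genes were higher in every library as well, all 41 of those measured, with a median of 1.93. Clspn, which carries the signal of the replication checkpoint, had 69.1 and 53.1 CPM in cycling macrophages of JAG2KO and 57.6, 68.2 and 66.1 CPM in those of Scramble libraries. Other macrophages had 3.93 and 6.26 CPM in JAG2KO and 4.22, 4.15 and 3.79 CPM in Scramble libraries, a median log2 ratio of 3.75. Rrm2, the regulated subunit of the enzyme that makes deoxynucleotides, had 3.68. Outside the list, Esco2, which locks cohesin onto copied DNA, had 4.53. The replication genes Pcna and Mcm3 had 1.60 and 1.47, and other macrophages held 111 to 142 CPM of Pcna and 43.8 to 52.4 CPM of Mcm3.

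All 17 measured histone and chromatin genes were higher in 5 of 5 libraries, with a median of 1.78. Histone genes of S phase had some of the highest ratios of all, led by the linker histone Hist1h1b at 4.76 and by Hist1h2ae at 4.39, and outside the list Hist1h2ab had 4.56 and Hist1h3c 4.25. Histone genes are near-identical copies, so their UMIs may be split between them. Nucleotide supply genes were higher by less, with a list median of 0.88 over 15 genes, all higher in 5 of 5 libraries. Thymidine kinase Tk1 had 3.43 there. Of 21 cyclins, kinases and inhibitors, 16 were higher in 5 of 5 libraries, 4 were mixed and 1 was lower. Ccna2 had 3.80, Foxm1, the transcription factor of G2/M genes, 3.35 and Cdkn2c, an inhibitor of Cdk4 and Cdk6, 2.76. The D-type cyclins that start the cycle did not follow, with Ccnd1 at 0.16, Ccnd2 at -0.29 and Ccnd3 at 0.09.

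G2/M genes share short promoter elements, and the windows of the rule's own 2 genes and of Ube2c are printed to show them. The windows run from 250 bases before to 50 after the start of the gene in RefSeq on mouse GRCm38.p6. Capitals mark the CHR element (TTTGAA) bound by the DREAM and MuvB complexes, the CCAAT box bound by NF-Y, and the E2F element GCGGGAA of S phase genes, all searched on both strands. On the other strand the CHR element reads TTCAAA and the CCAAT box reads ATTGG. The 2 strands of a CCAAT box overlap once, in Ube2c. The window of Rad51ap1, a DNA repair gene of the S phase list, is printed as an example of the E2F element.
Top2a (unwinds and cuts DNA strands, chr11:99024140-99024439, minus strand): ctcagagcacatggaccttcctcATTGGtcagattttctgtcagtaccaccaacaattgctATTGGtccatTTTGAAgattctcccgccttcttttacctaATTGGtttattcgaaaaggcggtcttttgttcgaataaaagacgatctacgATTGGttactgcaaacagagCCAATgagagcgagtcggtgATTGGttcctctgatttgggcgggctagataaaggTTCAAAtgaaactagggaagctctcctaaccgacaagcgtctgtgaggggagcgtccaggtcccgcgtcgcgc
Mki67 (coats mitotic chromosomes, chr7:135716330-135716629, minus strand): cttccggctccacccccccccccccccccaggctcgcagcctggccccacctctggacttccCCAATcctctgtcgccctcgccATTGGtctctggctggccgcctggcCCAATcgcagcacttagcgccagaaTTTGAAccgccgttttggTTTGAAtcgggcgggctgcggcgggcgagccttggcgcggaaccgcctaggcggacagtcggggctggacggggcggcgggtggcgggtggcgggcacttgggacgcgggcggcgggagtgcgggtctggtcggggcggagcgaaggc
Ube2c (ends mitosis, chr2:164769679-164769978, plus strand): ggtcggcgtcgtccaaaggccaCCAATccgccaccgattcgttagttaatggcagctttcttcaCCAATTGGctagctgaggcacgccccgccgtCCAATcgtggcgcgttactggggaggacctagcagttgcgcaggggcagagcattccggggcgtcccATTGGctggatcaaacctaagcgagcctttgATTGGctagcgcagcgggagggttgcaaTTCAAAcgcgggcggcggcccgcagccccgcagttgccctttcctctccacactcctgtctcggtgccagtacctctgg
Rad51ap1 (DNA repair in S phase, chr6:126939538-126939837, minus strand): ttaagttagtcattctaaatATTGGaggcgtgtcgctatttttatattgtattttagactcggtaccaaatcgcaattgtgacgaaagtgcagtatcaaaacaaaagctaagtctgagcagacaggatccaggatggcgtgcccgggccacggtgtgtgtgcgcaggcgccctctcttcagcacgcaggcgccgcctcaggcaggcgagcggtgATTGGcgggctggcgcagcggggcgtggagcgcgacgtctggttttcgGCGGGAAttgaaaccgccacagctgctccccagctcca
Counted over both strands, Top2a held 2 CHR elements and 6 CCAAT boxes, Mki67 2 and 3, Ube2c 1 and 6, and Rad51ap1 0 and 2 with 1 E2F element. Of the 52 G2/M genes 46 had a window, and 32 of these (69.6%) held a CHR element, against 20.2% of the 27025 genes with one. CCAAT boxes stood in 35 of the 46 (76.1%), against 41.1% of all genes, and GCGGGAA in 1 (2.17%), against 5.29%. For the S phase list the check was void, since 31 of 43 genes had a window and too many had none. A match describes the letters of the window and not a bound site.

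The macrophage programme itself differed less. The 14 macrophage identity genes had a median log2 ratio of -0.07, and 7 of them were lower in all 5 libraries. Cd14, the co-receptor for bacterial lipopolysaccharide, was at -1.03 and the others between -0.35 and 0.07. With matching the identity median was -0.21, and among macrophages without UMIs of other lineages 0.16. Genes of tissue-resident macrophages had a median of -0.05 over 10 genes, -0.37 with matching and 0.31 without UMIs of other lineages, so the sign of both lists depended on the cells compared. Among the 16 measured tumour macrophage and suppression genes the median was -0.32, with Arg1, which breaks down arginine, at -0.82 and the Fc receptor-like gene Fcrls at 0.36.

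Genes of recent monocytes were lower in cycling macrophages, all 9 measured in all 5 libraries, where 28.5% of all genes were lower in 5 of 5. Ly6c2, the surface marker of inflammatory monocytes, had 7.13 and 7.95 CPM in cycling macrophages of JAG2KO and 8.41, 11.9 and 8.78 CPM in those of Scramble libraries. Other macrophages had 50.9 and 18.6 CPM in JAG2KO and 59.4, 75.7 and 85.0 CPM in Scramble libraries, so every cycling value lay under every other value. Its median log2 ratio was -2.67, and -1.15 with UMI matching. Plac8 had -2.52 and -1.15 with matching, Chil3, a chitinase-like protein, -2.28 and -1.11, and coagulation factor F10 -1.66 and -0.99. The list median was -1.03, and -0.71 with matching.

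Matching on UMIs moved other members of the list close to 0, with Ccr2 at -0.99 and -0.26 with matching and Ms4a4c at -1.03 and -0.20. Genes outside the list moved toward 0 as well. The cytokine Il1b had a ratio of -1.60, and -0.46 with UMI matching, and the chemokine Cxcl3 -2.05 and -0.65. S100a8 and S100a9, which neutrophils make in large amounts, had -1.81 and -1.93, and -0.28 and -0.34 with matching. The neutrophil list summed to 93.2 to 272 CPM in cycling and 234 to 980 CPM in other macrophages, and its part in these ratios was not tested. MHC class II genes, which present antigen to helper T cells, were lower in 5 of 5 libraries for all 8 measured, with a median of -0.94, and -0.31 with matching. Interferon response genes had a median of -0.68 over 14 genes, and -0.23 with matching.

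Regulators of macrophage growth showed a mixed pattern. The transcription factor gene Maf was at -0.01. Klf4 and Klf2, zinc finger factors that mouse macrophages need for self-renewal, were at -1.01 and -0.65, and -0.63 and -0.45 with matching. Myc, the growth transcription factor, was at 0.49, higher in all 5 libraries, and 0.26 with matching. Cdkn1a, the p53-induced cell cycle inhibitor p21, was at -0.44, and the receptor Csf1r at -0.10.

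Of 6 measured genes of the tumour-like list, 2 were higher in cycling macrophages of all 5 libraries and 2 had a ratio under -1. Rhox5, a homeobox gene, had 97.1 and 40 CPM in cycling macrophages of JAG2KO libraries and 39.1, 66.3 and 61.8 CPM in those of Scramble libraries. Other macrophages had 14.2 and 9.99 CPM in JAG2KO and 16.8, 16.9 and 15.3 CPM in Scramble libraries. A Rhox5 UMI was found in 11.3% and 10.1% of cycling macrophages of JAG2KO and 21.8%, 18.6% and 10.0% of those of Scramble libraries, and in 3.80% to 11.1% of other macrophages. The median log2 ratio of Rhox5 was 1.91, and 0.72 with UMI matching. The 7 genes of the tumour-like or fibroblast list summed to 196 to 422 CPM in cycling and 185 to 309 CPM in other macrophages, and their part in the ratios was not tested. Among macrophages without a UMI of the T, NK, B, mast, tumour-like and endothelial lists, the medians of the G2/M, S phase and monocyte lists were 3.65, 2.11 and -1.73.

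**Figure D3:**
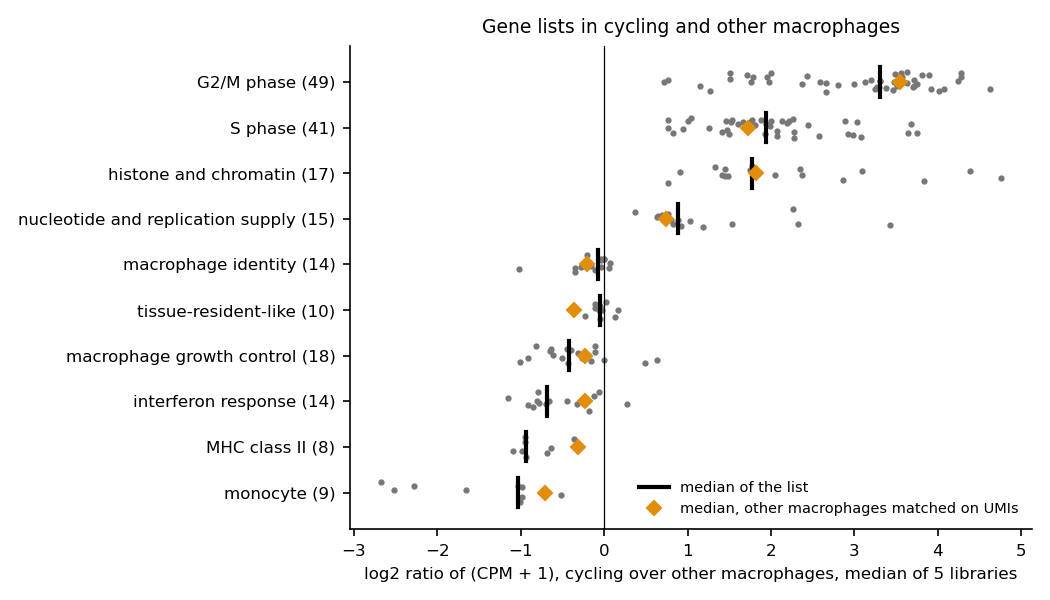
Log2 ratio of CPM plus 1 in cycling over other macrophages for genes of 10 lists, each dot a gene (median of 5 libraries), with the number of genes in brackets, bars for list medians and diamonds for list medians with UMI matching. Division lists lie to the right of 0 whether matched or not, while the monocyte median is -1.03 and -0.71 with matching.

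The next comparison asked which genes of cycling macrophages differed with the guide against Jag2 in the cancer cells. Among 12834 genes tested, 445 (3.47%) passed an adjusted p of 0.05 in edgeR's quasi-likelihood test with Benjamini-Hochberg adjustment, 224 higher (1.75%) and 221 lower (1.72%) in JAG2KO than in Scramble libraries. The numbers rested on single libraries, with 48 calls without Scramble 1, 41 without Scramble 2, 150 without Scramble 3, 590 without JAG2KO 2 and 706 without JAG2KO 1. Fits without a JAG2KO library left 1 library in that group. An unadjusted p under 0.05 was found for 2132 of the 12834 genes, beside which the list counts below should be read. Of all genes tested, 32.8% had groups that did not overlap. The genes named as changed below all had such groups.

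Spp1, Cd38, Fcrls and Ccl12 fell, 4 of 17 tumour macrophage and suppression genes. Spp1, the secreted glycoprotein osteopontin, had 532 and 488 CPM in cycling macrophages of JAG2KO libraries, against 3301, 2243 and 2312 CPM in those of Scramble libraries. Both JAG2KO values lay far under the lowest Scramble value (log2 fold change -2.37, SE 0.19, edgeR adjusted p = 0.00459). Cd38, an enzyme that degrades NAD, had 24.0 and 19.3 CPM in JAG2KO and 90.5, 72.3 and 81.8 CPM in Scramble libraries (-1.92, SE 0.13, edgeR adjusted p = 0.00286). Fcrls had 277 and 200 CPM in JAG2KO and 803, 746 and 767 CPM in Scramble libraries (-1.71, SE 0.13, edgeR adjusted p = 0.00405). The monocyte-attracting chemokine Ccl12 fell by 1.42. None of the 17 was higher past the threshold, and the list median was 0.26 against 0.00 over all genes. In other macrophages of the same libraries 4 of the 17 were lower and 1 was higher. The difference between the effects in cycling and other macrophages, described below, was called for 0 of them.

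Vsig4, C4b, Slc40a1 and Ch25h were also among the 10 largest falls. Vsig4, a receptor for complement fragments on tissue macrophages, had 11.4 and 14.7 CPM in JAG2KO and 55.1, 42.0 and 32.3 CPM in Scramble libraries (log2 fold change -1.76, SE 0.24, edgeR adjusted p = 0.0153). The complement gene C4b had 25.9 and 18 CPM in JAG2KO and 62.7, 72.7 and 72.9 CPM in Scramble libraries, a log2 fold change of -1.67. Slc40a1, the iron exporter ferroportin, had 9.03 and 6.21 CPM in JAG2KO and 25.8, 21.5 and 20.3 CPM in Scramble libraries, a log2 fold change of -1.56. Ch25h, which makes 25-hydroxycholesterol, had a log2 fold change of -1.54. In each of these genes the higher JAG2KO library lay well under the lowest Scramble library.

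Mmp3, H19 and Lum were also among the 10 largest falls, and cells outside the macrophage gate held more of them. Mmp3, a matrix-degrading enzyme, had 0.299 and 0.497 CPM in JAG2KO and 25.3, 31.6 and 27.3 CPM in Scramble libraries, a log2 fold change of -6.22. The imprinted non-coding RNA H19 and the matrix proteoglycan Lum had log2 fold changes of -3.13 and -2.12. Kept cells with Rhox5 outside the macrophage gate held 539 CPM of Mmp3, 307 CPM of H19 and 400 CPM of Lum. The cycling macrophages stood at 3.15%, 7.83% and 4.88% of those levels. Free or engulfed RNA of such cells in these values was not tested.

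On the other side, Mgl2, a C-type lectin that binds galactose, had 91.0 and 189 CPM in JAG2KO and 24.3, 29.7 and 33.8 CPM in Scramble libraries (log2 fold change 2.26, SE 0.30, edgeR adjusted p = 0.0144). Lpl, the lipase that frees fatty acids from lipoproteins, had 176 and 114 CPM in JAG2KO and 33.4, 32 and 44.3 CPM in Scramble libraries (1.97, SE 0.18, edgeR adjusted p = 0.00514). Flrt3, an adhesion protein, had 29.2 and 29.8 CPM in JAG2KO and 5.59, 6.11 and 12.1 CPM in Scramble libraries, a log2 fold change of 1.91. In each of them the lower JAG2KO library exceeded the highest Scramble library by more than 2 times. The transcription factor Egr2 rose by 1.84, the tubulin-binding Tppp3 by 1.85 and the surface receptor Slamf8 by 1.76 on the log2 scale. Gbp2, an interferon-induced GTPase, rose by 1.56, and Tnip3, which binds the NF-kB inhibitor A20, by 1.60.

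Il7r and Ccl5 completed the 10 largest rises, and T cells make far more of both. Il7r, the receptor for interleukin-7, had 14.5 and 22.8 CPM in JAG2KO and 3.31, 6.44 and 4.32 CPM in Scramble libraries, 2.91% of the level in cells gated as T cells. The chemokine Ccl5 had 27.9 and 41.1 CPM in JAG2KO and 9.66, 12.9 and 12.2 CPM in Scramble libraries, 0.833% of the T cell level. The 7 genes of the T cell list summed to 12.1 and 16.8 CPM in cycling macrophages of JAG2KO and 3.69, 6.54 and 4.32 CPM in those of Scramble libraries, while Cd3d, Cd3e and Cd3g, outside the list, were at 0 by the rule. All 7 had positive fold changes and Trbc2 passed the test, a call lost without JAG2KO 2 or any one Scramble library. The part of T cell RNA in Il7r and Ccl5 was not tested. The Il7r call was lost among cycling macrophages without other-lineage UMIs and the Ccl5 call was not.

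Calls that held with each library left out in turn were those of Spp1, Fcrls, Cd38, C4b, Slc40a1, Ch25h, Mmp3, H19, Lpl and Tnip3. Without Scramble 1 or without Scramble 2 the edgeR adjusted p of Mgl2, Egr2, Tppp3, Flrt3, Ccl5, Ccl12 and Lum exceeded 0.05, up to 0.0862. The Vsig4 call was lost without Scramble 2, the Gbp2 call without Scramble 2 or 3, the Il7r call without Scramble 1 or 3 and the Slamf8 call without any one of the Scramble libraries. Cycling macrophages without other-lineage UMIs lost the calls of Vsig4, Gbp2 and Slamf8, those chosen after thinning lost Slc40a1, and those with a UMI of either gene lost Flrt3.

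**Figure D4:**
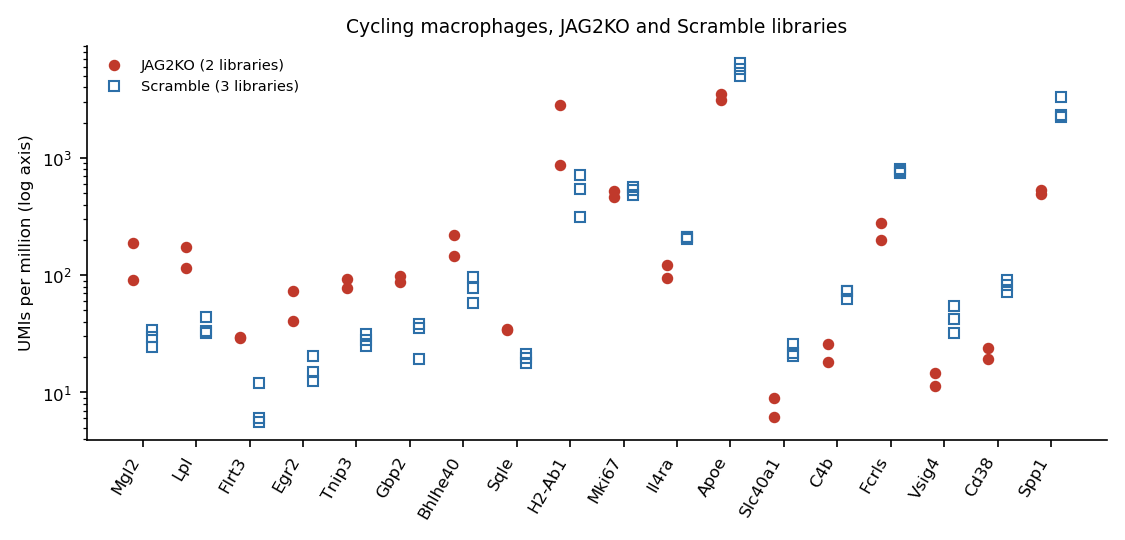
CPM in cycling macrophages of each library, on a log axis, for 18 named genes, with filled circles for the 2 JAG2KO libraries and open squares for the 3 Scramble libraries. Groups are apart for every gene shown except Mki67, with Spp1 at 488 and 532 against 2243 to 3301.

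Cell cycle genes did not pass in either direction. The cells of both groups were chosen by UMIs of Mki67 and Top2a, which limits how far their cell cycle levels could differ. Over all genes tested, 445 of 12834 (3.47%) passed in edgeR. Of the 43 S phase genes 0 passed in edgeR and 0 in DESeq2, with 0 at an unadjusted p under 0.05 and a median log2 fold change of 0.04, against 0.00 over all genes. Of the 52 G2/M genes 0 passed in either tool and 6 had an unadjusted p under 0.05, where 2132 of all 12834 genes did. Their median was 0.09 and 43 of 52 were positive, against 6502 of 12834 over all genes. Nusap1 had 148 and 123 CPM in JAG2KO and 111, 98.2 and 110 CPM in Scramble libraries (log2 fold change 0.33, SE 0.10, edgeR adjusted p = 0.128). The rule's own genes had 523 and 462 CPM of Mki67 in JAG2KO and 485, 562 and 537 in Scramble libraries, and 760 and 673 CPM of Top2a in JAG2KO and 613, 582 and 622 in Scramble libraries. Histone and nucleotide supply lists had 0 of 18 and 0 of 16 genes past the threshold in both tools, with 4 and 1 at an unadjusted p under 0.05.

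Growth regulators moved in part. Cdkn2b, an inhibitor of Cdk4 and Cdk6, had 0.599 and 0.414 CPM in JAG2KO and 3.47, 2.79 and 3.09 CPM in Scramble libraries (log2 fold change -2.58, SE 0.32, edgeR adjusted p = 0.0128). It was the only one of 25 cyclins, kinases and inhibitors to pass, and it rested on 12 and 5 UMIs in JAG2KO and 64, 58 and 43 UMIs in Scramble libraries. Its call was lost without Scramble 1 or Scramble 2, in cells chosen after thinning and in cells without other-lineage UMIs. Of 19 macrophage growth genes, Il4ra fell and Klf4 and Bhlhe40 rose. The interleukin-4 receptor gene Il4ra had 122 and 95.4 CPM in JAG2KO and 205, 210 and 210 CPM in Scramble libraries (-0.95, SE 0.10, edgeR adjusted p = 0.00698), and its call held with each library left out. Klf4 had 554 and 587 CPM in JAG2KO and 296, 330 and 399 CPM in Scramble libraries, with an edgeR adjusted p of 0.0338 that exceeded 0.05 without JAG2KO 2, Scramble 1 or Scramble 2. The Klf4 call was also lost in cells chosen after thinning, with 2 UMIs of each gene and with a UMI of either gene. Bhlhe40, a transcription factor linked to macrophage proliferation, had 147 and 218 CPM in JAG2KO and 58.2, 77.6 and 96.4 CPM in Scramble libraries, and its call held only without JAG2KO 1. Klf2, Maf and Myc did not pass in edgeR, with log2 fold changes of 0.45, -0.44 and -0.16. Klf2 passed in DESeq2 (adjusted p = 0.000457) and in edgeR without the top 8% of doublet scores (adjusted p = 0.0392).

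Sterol synthesis was the list with the most calls, 9 of 15 genes higher and 0 lower, with a median log2 fold change of 0.69. Sqle, which makes squalene epoxide, had 34.7 and 33.9 CPM in JAG2KO and 17.8, 19.7 and 21.2 CPM in Scramble libraries (0.80, SE 0.10, edgeR adjusted p = 0.0135). Insig1, the brake on sterol gene activation, had 43.8 and 47.8 CPM in JAG2KO and 25.5, 25.4 and 30.4 CPM in Scramble libraries. Fdps, which makes farnesyl pyrophosphate, had 94.0 and 85.7 CPM in JAG2KO and 47.7, 61.6 and 55.8 CPM in Scramble libraries. The count was 0 without Scramble 1 or without Scramble 2, 4 without Scramble 3, 6 without JAG2KO 2, 3 in cells chosen after thinning and 2 in cells without other-lineage UMIs, while the median stayed between 0.56 and 0.84. In other macrophages 4 of 15 were higher with a median of 0.68, and the median of the difference between the 2 effects was 0.02.

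MHC class II genes had positive fold changes, and whether they passed depended on the fit. H2-Ab1, a chain of the class II molecule, had 878 and 2839 CPM in JAG2KO and 310, 710 and 541 CPM in Scramble libraries. Its log2 fold change of 1.85 (SE 0.49) had an edgeR adjusted p of 0.0956. All 10 genes had positive fold changes, with a median of 1.53, and 0 passed in edgeR, 8 had an unadjusted p under 0.05 and 1 passed in DESeq2. JAG2KO 2 held over 3 times the H2-Ab1 level of JAG2KO 1. Without JAG2KO 1 the list median was 2.09 and without JAG2KO 2 it was 0.68, each fit with 1 JAG2KO library. Without a filter on low counts 8 passed in edgeR. With the replicate number as a block 8 passed too, H2-Ab1 at an edgeR adjusted p of 0.000828. Scramble 3 has no partner in that block and adds nothing to the group effect there. The 8 genes of the dendritic cell list summed to 35.8 and 31.0 CPM in JAG2KO and 32.1, 36.6 and 43.3 CPM in Scramble libraries, and 7 of them had positive fold changes, with a median of 0.56. Fscn1 was the only one to pass, lower in JAG2KO, a call lost without other-lineage UMIs. The part of dendritic cell RNA in the MHC class II values was not tested.

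Identity genes leaned lower, with 3 of 14 past the threshold and a median log2 fold change of -0.36. Apoe, the lipid carrier apolipoprotein E, had 3485 and 3124 CPM in JAG2KO and 5697, 6392 and 5014 CPM in Scramble libraries (-0.80, SE 0.14, edgeR adjusted p = 0.0285). The lysosomal protease gene Ctsd and the Fc receptor gene Fcgr1 fell by 0.77 and 0.65 on the log2 scale. All 3 calls were lost without any one of the Scramble libraries. The tissue-resident list had a median of -0.50, with 0 of 10 past the threshold in edgeR, 3 lower in DESeq2 and 5 at an unadjusted p under 0.05.

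Other lists had few calls. Of 12 monocyte genes, Nr4a1 rose (261 and 218 CPM in JAG2KO, 131, 132 and 146 CPM in Scramble libraries) and Hp, at 0.473% of its neutrophil level, fell. The chemokine receptor gene Ccr2 had 360 and 577 CPM in JAG2KO and 217, 274 and 257 CPM in Scramble libraries without passing (edgeR adjusted p = 0.0648). It passed in DESeq2 (adjusted p = 0.000672), and in edgeR with the replicate block (0.0089), at no more than 5% mitochondrial UMIs (0.0423) and without the top 8% of doublet scores (0.0476). Of 16 interferon response genes, Gbp2 was higher and Ifit1 lower, with Ifit1 at 11 and 8.03 CPM in JAG2KO and 16.9, 18.5 and 17.3 CPM in Scramble libraries. Pfkp and Ndrg1 were the 2 of 15 glycolysis and hypoxia genes that rose, with log2 fold changes of 0.76 and 0.75 beside a list median of -0.12. Lpl was the only one of 13 lipid handling genes to pass. The calls of Ifit1, Pfkp, Hp and Ndrg1 were lost without any one Scramble library, that of Nr4a1 without Scramble 1 or 2, that of Hp also without JAG2KO 1 and that of Ndrg1 also without JAG2KO 2. Cells chosen after thinning lost the calls of Ifit1, Hp and Ndrg1.

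Notch pathway genes, the direct question of the guide, did not pass. Of 19 tested 0 passed in edgeR, 1 passed in DESeq2 and 3 had an unadjusted p under 0.05, where 2132 of all 12834 genes did. The median log2 fold change was -0.10, with 16 negative and 3 positive. Over all genes 6332 were negative and 6502 positive. The receptor gene Notch1 had 35.9 and 40.9 CPM in JAG2KO and 37.8, 38.0 and 39.4 CPM in Scramble libraries, so the groups overlapped. Notch2 had 46.8 and 59.8 CPM in JAG2KO and 42.1, 33.7 and 32 CPM in Scramble libraries (log2 fold change 0.56, SE 0.16, edgeR adjusted p = 0.124). Rbpj, the DNA-binding partner of active Notch, had a log2 fold change of 0.12 and its target Hes1 -0.35. Arg1, Mrc1 and Cd274, the gene of PD-L1, did not pass in edgeR, with log2 fold changes of -0.55, -0.58 and 0.82. DESeq2 called Notch2, Mrc1 and Cd274 (adjusted p = 0.0481, 0.0238 and 0.0241). With the replicate block, where Scramble 3 has no partner, edgeR called Cd274 (adjusted p = 0.00469).

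UMIs of other lineages were common in cycling macrophages, and 1508 of the 5171 (29.2%) had none of the T, NK, B, mast, tumour-like or endothelial lists. Of 5 endothelial genes Cdh5 and Cldn5 were higher, at 4.24 and 4.88 CPM and at 1.65 and 1.41 CPM in JAG2KO, against 1.39 to 1.87 and 0.217 to 0.288 CPM in Scramble libraries. Both calls were lost without any one Scramble library. The whole list summed to 30.1 and 37.9 CPM in JAG2KO and 13.6, 17.8 and 21.8 CPM in Scramble libraries. The neutrophil list summed to 93.2 and 141 CPM in JAG2KO, under the 185, 272 and 204 CPM of Scramble libraries, with 0 of 7 genes past the threshold in edgeR or DESeq2 and 3 at an unadjusted p under 0.05. Tumour-like genes summed to 422 and 196 CPM in JAG2KO and 244, 315 and 257 CPM in Scramble libraries, and 0 of 7 passed in either tool, with 3 at an unadjusted p under 0.05.

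The last comparison asked whether the JAG2KO effect in cycling macrophages differed from that in the other macrophages of the same libraries. An interaction term in edgeR, with library as a block, was tested in 14075 genes, and 4 (0.0284%) passed an adjusted p of 0.05. All 4 were more positive in cycling macrophages. In edgeR 0 were more negative, although 591 genes had an unadjusted p under 0.05 in that direction and DESeq2 called 28 lower and 66 higher. Other macrophages themselves had 156 genes higher and 259 lower in JAG2KO among 14238 tested (1.10% and 1.82%).

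Traf1, an adaptor of tumour necrosis factor receptors, had 48.9 and 34.9 CPM in cycling macrophages of JAG2KO libraries, against 13.1, 17.9 and 19.9 CPM in those of Scramble libraries. In other macrophages it had 58.0 and 39.2 CPM in JAG2KO and 31.0, 37.2 and 41.9 CPM in Scramble libraries. The groups were apart in cycling macrophages and overlapped in the others, and the difference between the effects was 0.93 on the log2 scale (SE 0.08, edgeR adjusted p = 0.0107). Tnip3 had 78.2 and 93.3 CPM in cycling macrophages of JAG2KO and 24.8, 31.7 and 27.8 CPM in those of Scramble libraries, and 89.1 and 106 CPM in other macrophages of JAG2KO and 56.9, 69.0 and 82.6 CPM in those of Scramble libraries. Its difference was 1.13 (SE 0.11, edgeR adjusted p = 0.0150).

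Cxcl2, a chemokine that attracts neutrophils, had 775 and 510 CPM in cycling macrophages of JAG2KO and 495, 473 and 464 CPM in those of Scramble libraries. Other macrophages had 868 and 594 CPM in JAG2KO and 1099, 1016 and 845 CPM in Scramble libraries. The log2 fold change was 0.41 in cycling and -0.45 in other macrophages, neither past the threshold alone, while their difference of 0.88 passed (SE 0.08, edgeR adjusted p = 0.0107). Ccl5 had a log2 fold change of 1.56 in cycling and 0.39 in other macrophages, a difference of 1.19 (SE 0.12, edgeR adjusted p = 0.0163). In other macrophages it had 47.0 and 55.6 CPM in JAG2KO and 32.6, 48.5 and 35.7 CPM in Scramble libraries. In Scramble libraries each of the 4 genes was lower in cycling than in other macrophages of every library, and in JAG2KO libraries the cycling values were lower too but closer.

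All 4 calls were lost without Scramble 1, and that of Ccl5 also without Scramble 2. The Traf1 call was lost without UMIs of other lineages, that of Tnip3 at no more than 5% mitochondrial UMIs, that of Ccl5 without the top 8% of doublet scores, and those of Tnip3 and Ccl5 with 2 UMIs of each gene. The Cxcl2 call held in these settings. Among the next smallest p-values, Ccr2, with a difference of 0.73, and Serpinb6a, C4b, Ctla2b, Lum and Cadm1, with differences of -0.36, -0.70, -0.39, -1.04 and -0.54, did not pass. The difference had a list median of 0.69 over the 10 MHC class II genes and 0.64 over the 12 monocyte genes, against 0.02 over all genes, with 0 called in edgeR in either.

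**Figure D5:**
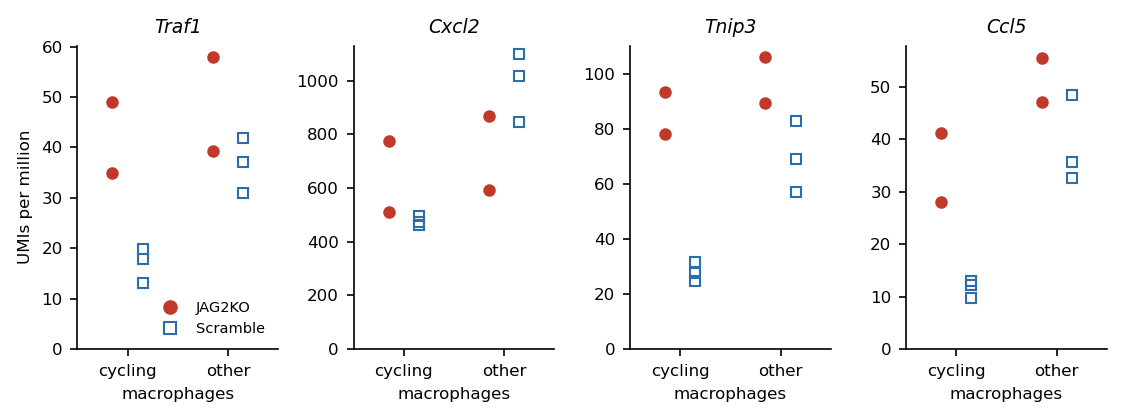
CPM of Traf1, Cxcl2, Tnip3 and Ccl5 in cycling and other macrophages, with 1 point per library, filled circles for JAG2KO and open squares for Scramble. In cycling macrophages the Traf1 values are 34.9 and 48.9 in JAG2KO against 13.1 to 19.9 in Scramble libraries, while in other macrophages its groups overlap.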

How the data were processed

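The assay was droplet single-cell RNA sequencing (10x single cell 3' v2, per the labels' protocols) of 5 libraries. The deposited values are raw UMI counts per gene and barcode for 32285 genes, already filtered for empty barcodes per the series' design text. They came from cellranger 6.0.0, per the file headers. Seurat, GRCm38 and mm10 are named, without a role, in the submitters' processing notes.

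The cell type, its rule and the 24 gene lists were chosen with earlier results of these data known. Cells were gated on the counts as deposited. Doublets were scored with Scrublet in scanpy 1.11.5, whose automatic threshold marked at most 1 cell per library and so did not work. The top 8% of scores were removed as an alternative, and the main values include these cells. UMIs were summed per library over cycling and over other macrophages. Groups were compared with edgeR 4.0.16 (quasi-likelihood, TMM, filterByExpr, Benjamini-Hochberg over all genes tested, limma 3.58.1, R 4.3.3), with DESeq2 1.42.0 as an alternative. Shares and summed levels were compared with two-sided exact permutation tests over libraries (scipy 1.17.1). Thinning drew UMIs at random without replacement with a fixed seed. The edgeR steps were tested on simulated data.

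Named genes were, for JAG2KO against Scramble, the 10 largest called changes each way among genes that averaged 10 CPM or more and whose groups were apart, and genes of the lists. Alternatives covered size factors, filters on genes and cells, membership, thinning and each library left out. Membership without UMIs of other lineages was chosen after seeing the data. Some single genes of the lists are not reported here.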

Additional observations from a re-analysis of the deposited data

Results flagged for a closer look

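The JAG2KO effect in cycling macrophages differed from that in the other macrophages of the same libraries for 4 genes, by the interaction term in edgeR with Benjamini-Hochberg adjustment. The difference of the log2 fold changes was 0.93 for Traf1, 0.88 for Cxcl2, 1.13 for Tnip3 and 1.19 for Ccl5. All 4 passed on 5 libraries and none passed without Scramble 1. The cause was not tested.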

How the results depend on the processing

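The difference in the share of cycling macrophages, 0.71 percentage points at 2000 UMIs, turned to -0.136 at 1000 UMIs, -1.45 without thinning and -0.0618 with 2 UMIs of each gene. It was 1.16 at 4000 UMIs, 1.97 with a UMI of either gene, 0.85 without the top 8% of doublet scores and 0.322 to 1.05 with a library left out. The S phase RNA difference ran from -22.7 to 95.5 CPM with single libraries left out, and the phase balance was -0.123 in cells chosen after thinning. The 445 genes called between the groups became 703 with DESeq2, 1329 without a filter on low counts, 229 with 2 UMIs of each gene, 243 in cells chosen after thinning, 197 without UMIs of other lineages and 41 to 706 with a library left out. The 4 interaction calls became 94, 393, 552 with a UMI of either gene, 33 after thinning, 10 without other lineages, 19 with sums thinned to the smallest and 0 to 165 with a library left out, where 94 is DESeq2 and 393 no filter. Genes under a ratio of -1 numbered 18 with UMI matching, 93 without the top 8% of doublet scores and 101 without other lineages, against 60. Mki67 was at 0.075 with a UMI of either gene, Hes1 at 0.27 and Csf1 at -1.01 without other lineages, Myc at 0.095 in cells chosen after thinning, and Notch1 at 0.046 with at most 5% mitochondrial UMIs and 0.043 with thinned sums. With single libraries left out Notch1 ran from -0.16 to 0.14, Myc from -0.51 to 0.10 and Csf1 from -0.18 to 1.07. The causes were not tested.

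Whether the replicate numbers pair the libraries could not be decided. Deviations correlated at 0.107 for number 1 and 0.00853 for number 2. JAG2KO 2 with Scramble 1 gave -0.107, and JAG2KO 1 with Scramble 2 gave -0.00853. The deviations of the JAG2KO libraries thus mirrored each other, so these values are not separate evidence for or against a pairing. With the replicate block edgeR called 679 genes, and Notch1 was at 0.0033.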
